A study of Rattus norvegicus with 12 samples.

Results

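The thalami of rats given CFA were compared with those of rats given saline across all genes of the deposited expression table whose level averaged 1 FPKM or more across the 6 thalamus libraries. FPKM counts sequenced fragments per kilobase of gene, scaled to the depth of the library. Of 34525 genes listed, 14722 met this rule, and 6 of the 12 libraries of the series entered the comparison. Both groups were rat thalamus. The 3 saline libraries carried the treatment label 0.9% NS and the 3 CFA libraries the letters CFA alone, which in rodent pain work usually stand for complete Freund's adjuvant, mycobacteria in oil injected to inflame a tissue for days. Strain, sex, age, dose, site of injection and time were not given in the sources used here, and the title speaks of chronic orofacial pain. Separate animals and pools cannot be told apart from the labels, so the p-values measured only the spread between these samples, which may be technical.

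The thalamus passes touch and pain signals from the face and body on to the cortex, and most of its RNA comes from neurons, oligodendrocytes, astrocytes and microglia. In inflammation, cytokines such as interferon gamma and tumour necrosis factor act through JAK kinases, STAT factors and NF-kB. These switch on genes for guanylate-binding GTPases, an altered proteasome that cuts peptides for MHC class I, and antigen presentation. Microglia are the resident macrophages of the brain and carry the signalling kinases and motile cytoskeleton of blood leukocytes. In bulk tissue, fewer cells of a type and less RNA per cell cannot be told apart.

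The reads per thalamus library, recovered from the table, ranged from 14978698 to 19099460. Tcf7l2, Prkcd and the other thalamic neuron markers were present in every library, and although the extraction text mentions retinas, 12 photoreceptor genes reached at most 3.14 FPKM. Some libraries stood apart within their group. The summed level of 14 choroid plexus markers, genes of the tissue that makes cerebrospinal fluid, was 56.4 to 88.0 FPKM in saline, 63.9 in CFA 3, 2722 in CFA 2 and 11110 in CFA 1. CFA 1 was also highest in the sum of 20 meningeal and mural markers (727 FPKM against 212 to 273 in the other 5 libraries) and lowest in the sum of 14 thalamic neuron markers (229 against 569 to 1262). Saline 2 was highest in the sum of hypothalamic markers (118 FPKM against 10.5 to 28.9). The sum of 13 cortical and hippocampal neuron markers was high in CFA 1 (729 FPKM) and saline 1 (429) against 101 to 162 in the other 4 libraries. Medians of the main classes are given below for each CFA library.

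Rises outnumbered falls among the genes that passed a limma adjusted p of 0.05, at every level of expression in saline. In all, 605 genes were called (4.11%), 565 higher (3.84%) and 40 lower (0.272%). Counts of class members called are read against these shares. The genes called higher had a median saline level of 1.71 FPKM and those called lower of 31.6 FPKM, against 9.37 FPKM for all genes tested. Among the 588 genes below 1 FPKM in saline, 192 were called higher (32.7%), but these entered only through their CFA level. From 5 to 20 FPKM the share was 1.87% (102 of 5455) and from 20 to 100 FPKM 0.84% (30 of 3571), where 19 genes (0.532%) were lower. At 100 FPKM or more, 9 genes were higher and 5 lower.

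Large rises were the minority of the calls. Log2 changes, all of log2(FPKM + 1) and so smaller than the true change for low genes, were at least 3 in 50 called genes, 2 to 3 in 114, 1.5 to 2 in 127, 1 to 1.5 in 179 and between 0 and 1 in 95. The top of the range was held by Lcn2 (7.26), RT1-Ba (6.46), Cxcl13 (6.06), Cd74 (5.66), RT1-Da (5.19) and Plac8 (5.03). Of the 40 falls, 7 passed a log2 change of -1 and 13 were smaller than -0.585. Below the threshold, the balance leaned the other way: 8905 genes (60.5%) had a negative change, every CFA library was below every saline library for 2469 genes (16.8%) and above for 1796 (12.2%), and the median of all genes was -0.08. That median was 0.07 after rescaling to the same FPKM total and 0.09 by limma-voom on recovered reads, so class medians are read against the median of all genes. Of the 565 genes called higher, 409 belonged to none of the class or marker lists examined.

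**Figure D1:**
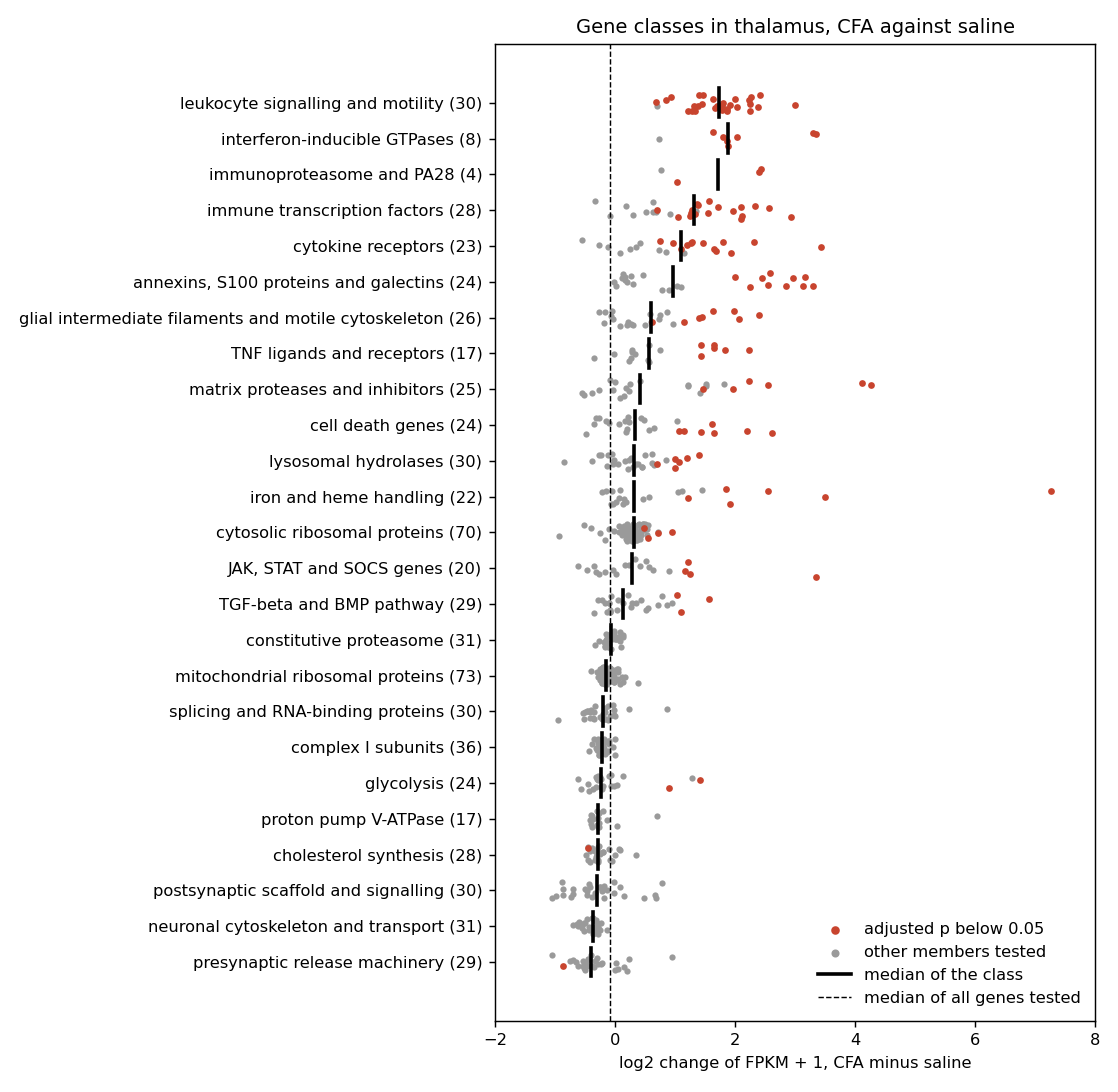
Log2 change of each tested member (points, log2(FPKM + 1) scale, CFA minus saline) for classes of genes, with the class median as a bar, called members in red and a dashed line at the median of all genes. Leukocyte signalling genes lay to the right of 0 in all 30 cases, neuronal cytoskeleton genes to the left in all 31, and the constitutive proteasome lay around the median of all genes.

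Among the moderate rises, with log2 changes below 1.5, 274 genes were called, 264 of them protein coding, from a median saline level of 2.62 FPKM. Of these 274, 215 were in no list, and the 15 with the smallest p are described by gene. Vasp, which extends actin filaments at the leading edge of moving cells, stood at 8.24, 6.87 and 6.66 FPKM in saline libraries 1, 2 and 3 and at 21.7, 22.0 and 20.9 FPKM in CFA libraries 1, 2 and 3 (log2 1.46 ± 0.10 SE, limma adjusted p = 0.0011). The groups were separated by more than the whole range within either. Abi3, of the complex that drives actin branching, was at 2.33, 2.74 and 2.58 FPKM in saline and 8.54, 8.36 and 7.23 in CFA (log2 1.35). Gna15, the G protein subunit that couples many leukocyte receptors to phospholipase C, was nearly level within groups, at 1.17, 1.18 and 1.20 FPKM in saline and 4.41, 4.51 and 4.13 in CFA (log2 1.29).

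Microglial genes were also in this moderate band. Ctss, the lysosomal protease cathepsin S that trims the invariant chain, was at 153, 139 and 122 FPKM in saline and 306, 338 and 337 in CFA, a log2 change of 1.25 ± 0.11. Cx3cr1, the fractalkine receptor of microglia, was at 17.5, 15.8 and 15.2 FPKM in saline and 41.9, 39.4 and 34.1 in CFA, a log2 change of 1.20 ± 0.11. Neither gene's groups overlapped. Ptafr, the receptor for platelet-activating factor, rose by a log2 of 1.35, the Src-family kinase Lyn by 1.46, the guanine exchange factor Dock8 by 1.39, the lymphocyte adaptor Sash3 by 1.40 and the phosphatase Ptpn18 by 1.32. Sipa1 (1.27), which switches off Rap GTPases, Apbb1ip (1.05), which carries Rap signals to integrins, Otulinl (1.45) and Plekho2 (0.81) completed the group with Hk2, described with the glycolytic genes. All 15 stayed called whichever single library was left out, and none held with CFA 3 as the only CFA library (log2 changes 0.84 to 1.45). Microglia markers moved alongside: 11 of 15 tested were called higher, and the sum over the 16 listed was 263 to 307 FPKM in saline and 1129 to 1538 in CFA. The 11 calls became 7 without saline 3. Markers of blood leukocytes moved too. The 15 listed for monocytes and neutrophils, 1 of them at 0 in all 6 libraries, summed to 7.47 to 8.54 FPKM in saline and 78.9 to 99.6 in CFA, and the 19 listed for lymphocytes, 1 of them at 0, to 3.88 to 8.94 and 32.1 to 100.1. The part of these cells in the rises was not tested.

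**Figure D2:**
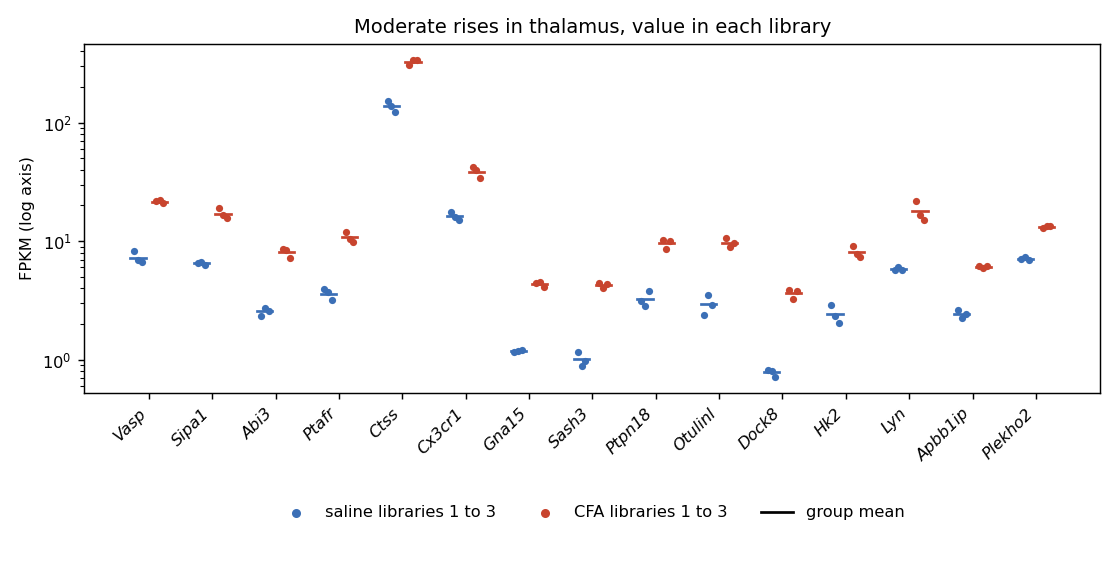
FPKM on a log axis for the 15 moderate rises, 1 point per library, with saline in blue, CFA in red and a short line at each group mean. For all 15 genes every CFA point lies above every saline point, from Dock8 below 1 FPKM in saline to Ctss above 100.

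The kinases, adaptors and cytoskeletal proteins of leukocytes moved as a nearly complete class. Of 30 genes for leukocyte signalling and motility 29 were called higher, beside 3.84% of all genes, with a median log2 change of 1.74. In CFA libraries 1, 2 and 3 the median against the saline mean was 1.87, 1.54 and 1.68, and it was 1.64 without CFA 1, the library richest in choroid plexus RNA. Of the 21 members with at least 1 FPKM in saline, 20 were called. Lcp1, the leukocyte actin bundler, was at 4.89, 4.16 and 5.08 FPKM in saline and 32.1, 28.6 and 28.1 in CFA. Both groups were narrow for this gene and far from overlapping, with a log2 change of 2.42 ± 0.11. Rac2 (3.0), the leukocyte Rac GTPase, Ptpn6 (2.23), a phosphatase that restrains receptor signalling, and Fgr (2.03) followed. The number called was 24 to 29 in the fits without 1 library, 7 with CFA 3 as the only CFA library and 8 without saline 2 and CFA 2.

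Receptors on the input side were called in part. Of 23 cytokine receptor genes 13 were called higher (56.5%, beside 3.84% of all genes), with a median log2 change of 1.10. Among the 18 with at least 1 FPKM in saline 8 were called. The 13 became 8 without CFA 1 and 7 without saline 2 or saline 3. Csf2rb, the shared beta chain of the GM-CSF, IL-3 and IL-5 receptors, was at 0.483, 0.711 and 0.363 FPKM in saline and 18.3, 17.8 and 10.9 in CFA (log2 3.43 ± 0.22). Csf1r, the receptor that sustains microglia, was at 29.7, 26.9 and 25.3 FPKM in saline and 98.6, 84.6 and 80.9 in CFA (log2 1.65 ± 0.11). Csf2ra (2.32), Csf3r (1.80) and Il21r (1.93) also rose, so the 4 colony-stimulating factor receptor chains on the list were all called. Of 17 TNF ligand and receptor genes 6 were called (35.3%). Among the 11 with at least 1 FPKM in saline 1 was called, Tnfrsf1a, the main TNF receptor of most tissues. It was at 6.71, 5.02 and 5.63 FPKM in saline against 21.8, 15.8 and 14.7 in CFA. Tnfrsf1b, the leukocyte TNF receptor, rose from a lower level by a log2 of 1.65 and Birc3, an inhibitor of apoptosis induced by NF-kB, by 1.83.

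The signal transducers between receptor and nucleus changed in few cases. Of 20 JAK, STAT and SOCS genes 4 were called higher, with a median of 0.29 that was 0.40, 0.19 and 0.27 in the 3 CFA libraries. Socs3, the feedback inhibitor induced by STAT3, was at 0.990, 0.867 and 1.26 FPKM in saline and 26.2, 17.6 and 16.3 in CFA (log2 3.34 ± 0.19). Jak3 (1.21) and Stat6 (1.16) were also called. No fit without 1 library kept all 4: 2 were called without CFA 1 or saline 2, 1 without saline 3 and 3 without each of the others. Within the TGF-beta and BMP pathway, 3 of 29 were called (10.3%). They were the ligand Tgfb1 (1.57) and both chains of its receptor, Tgfbr1 (1.04) and Tgfbr2 (1.11). Tgfb1 stood at 6.55, 5.56 and 4.38 FPKM in saline and 21.5, 15.5 and 17.7 in CFA. The median of that pathway was 0.13, and -0.02 without CFA 1, and 1 gene was called without saline 2 or saline 3.

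Transcription factors as a whole stayed near the median of all genes. Of 919 factors tested, 32 were higher (3.5%, beside 3.84% of all genes) and 2 lower (0.2%, beside 0.272%), with a median of -0.04. Without 1 library 15 to 31 were higher (15 without saline 2, 16 without saline 3 and 19 without CFA 1). The 28 tested on a list of immune factors had a median of 1.31, with 1.46, 1.09 and 1.09 in the 3 CFA libraries. With at least 1 FPKM in saline, 15 of 24 were higher. Over all 28 the number called higher was 18 (64.3%, beside 3.84% of all genes). That count was 10 without saline 2 or saline 3, 14 to 17 without another library, 2 with CFA 3 as the only CFA library and 3 without saline 2 and CFA 2. Spi1, which encodes PU.1, the master regulator of myeloid cells, was at 3.25, 2.93 and 2.50 FPKM in saline and 17.5, 13.7 and 15.9 in CFA (log2 2.09 ± 0.13). Irf8, its partner in microglia, was at 3.12, 1.86 and 2.75 FPKM in saline and 33.1, 26.4 and 20.3 in CFA (log2 2.94 ± 0.21). For both, the lowest CFA library exceeded the highest saline library by several times.

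By family, 5 of 18 ETS factors were higher (27.8%, beside 3.84% of all genes), with a family median of 0.14. They were Spi1, Fli1 (1.22), Elf4 (1.20), Elk3 (0.86) and Elf1 (0.85). In this family 2 were called when any library but saline 1 was left out. Of 43 bZIP factors 6 were higher, among them Cebpd (2.11), Cebpb (1.97), Batf3 (1.54) and Cebpa (1.37), with a median of -0.02, and 3 were called without saline 2 or saline 3. Nfkb2, a subunit of the noncanonical NF-kB dimer, was at 2.05, 1.24 and 1.44 FPKM in saline and 7.39, 6.11 and 6.24 in CFA (log2 1.57 ± 0.16). In other families, 2 of 358 C2H2 zinc finger factors were higher (Zfp217 1.07 and Ikzf1 1.39) and 2 lower (Hivep2 -0.53 and Zfp523 -0.45). No C2H2 factor was called lower in 4 other scalings, and at most 1 was in any fit without 1 library. By limma or limma-voom, 0 of 39 HMG and 0 of 16 forkhead factors were called (7 and 1 with an unadjusted p below 0.05). At the level of single members with the smallest p, Sox11 was -0.44, Hmgb2 0.83, Foxk2 -0.43 and Foxn2 0.31.

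Interferon-inducible effectors rose in 7 of 8 GTPases tested (87.5%, beside 3.84% of all genes), with a median of 1.88. Of the 6 with at least 1 FPKM in saline 5 were called, with a median of 1.96. The others met the filter through their CFA level. Gbp2, a guanylate-binding protein that attacks pathogen vacuoles, was at 2.55, 1.43 and 1.70 FPKM in saline and 31.0, 42.1 and 15.4 in CFA (log2 3.31 ± 0.36). Igtp, an immunity-related GTPase, was at 2.18, 1.36 and 1.67 FPKM in saline and 12.2, 10.1 and 5.94 in CFA (log2 1.89 ± 0.26). Irgm was at 2.78, 1.96 and 1.74 FPKM in saline and 12.2, 12.1 and 6.38 in CFA (log2 1.79 ± 0.26). In all 3, CFA 3 was the lowest of the CFA libraries and still above every saline library. Class medians were 2.07, 2.13 and 1.36 in CFA 1, 2 and 3. The number called was 4 without CFA 1 or CFA 2, 3 without saline 2, 2 without saline 3 and 0 without saline 2 and CFA 2.

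The proteasome changed in its immune subunits and not detectably in its common core. Psmb8 and Psmb9 replace catalytic subunits of the standard 20S particle, and Psme2 is a subunit of the PA28 activator. Psmb8 was at 1.63, 0.905 and 0.556 FPKM in saline and 10.3, 10.4 and 7.87 in CFA (log2 2.40 ± 0.22). Psme2 was at 17.3, 14.3 and 15.4 FPKM in saline and 38.0, 34.8 and 27.1 in CFA (log2 1.03 ± 0.15, limma adjusted p = 0.013). Psmb9 rose by a log2 of 2.43, and the fourth subunit tested was not called. Of these 4 subunits, 2 to 4 were called in the fits without 1 library and 1 without saline 2 and CFA 2. None of 31 constitutive proteasome genes was called by limma or limma-voom, and none had an unadjusted p below 0.05. Their median was -0.06, 1 was above every saline library and 3 below, and the members with the smallest p were Psmd7 (-0.19), Psmd3 (-0.14) and Psmc3 (-0.17), of which the last 2 changed sign in some scalings.

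Promoters of these genes were read because members moved together. RefSeq promoters on GRCr8 matched 9328 of the 14722 genes by a symbol unique in both tables. The 120 bases before the annotated start are printed below for some genes described above, picked because they hold a match to a searched motif. Among described genes without a match from 250 bases before to 50 after the start were Psmb9, Socs3, Cebpb and Vasp. Each printed window runs 5′ to 3′ on the strand of the gene, with matches to the searched motifs in capitals. GRCr8 is not stated to be the build of the expression table.
Igtp, chr10:42874927-42875046, plus strand: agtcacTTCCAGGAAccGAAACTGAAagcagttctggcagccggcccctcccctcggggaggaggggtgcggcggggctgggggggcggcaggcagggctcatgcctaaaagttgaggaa
Irgm, chr10:33742579-33742698, minus strand: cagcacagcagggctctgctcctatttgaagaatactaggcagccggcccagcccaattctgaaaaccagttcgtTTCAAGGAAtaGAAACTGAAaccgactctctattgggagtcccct
Gbp2, chr2:234005607-234005726, plus strand: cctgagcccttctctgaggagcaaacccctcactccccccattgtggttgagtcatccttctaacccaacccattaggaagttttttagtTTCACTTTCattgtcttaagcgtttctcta
Psme2, chr15:33052752-33052871, minus strand: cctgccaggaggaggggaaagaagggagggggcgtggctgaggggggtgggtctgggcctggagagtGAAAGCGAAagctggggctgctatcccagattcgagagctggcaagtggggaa
Ctss, chr2:185775276-185775395, plus strand: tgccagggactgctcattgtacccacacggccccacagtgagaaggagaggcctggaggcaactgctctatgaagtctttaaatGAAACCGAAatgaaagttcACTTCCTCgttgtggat
Nfkb2, chr1:255108254-255108373, plus strand: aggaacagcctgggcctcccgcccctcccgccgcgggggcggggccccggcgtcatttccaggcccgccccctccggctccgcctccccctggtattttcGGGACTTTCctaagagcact
In Igtp and Irgm the capitals mark a GAS match (TTCNNNGAA, an element bound by STAT dimers) followed by an interferon-stimulated response element core (GAAANNGAA), which begin 114 and 103 bases before the start in Igtp and 45 and 34 in Irgm. Gbp2 holds the response element core on the opposite strand, 30 bases before the start, and Psme2 holds it 53 before. Ctss holds the core 36 bases before the start and a PU.1 match (GAGGAAGT) on the opposite strand at 17. Nfkb2 holds a kappa B match (GGGANTTTC) 20 bases before.

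Over windows from 250 bases before to 50 after the start and on both strands, the response element core was in 72 of 394 promoters of genes called higher (18.3%), 1 of 17 called lower (5.88%) and 655 of 9328 genes tested (7.02%). It was in 5 of 7 interferon-inducible GTPases, 3 of 4 immunoproteasome genes and 5 of 27 constitutive proteasome genes. For the PU.1 word the shares were 8.63% (34) of those called higher and 2.51% (234) of all, and for kappa B 5.84% (23) and 1.16% (108). GAS was in 8.63% (34) against 6.35% (592). The lysosomal CLEAR word TCACGTGA was in 0.761% (3) against 1.65% (154), and the cyclic AMP element TGACGTCA in 1.02% (4) against 3.19% (298). No motif contains another, although matches can overlap in a promoter. Base composition differed beside these shares: promoters of genes called higher had a median GC content of 55.7% and 8 CG pairs, those called lower 68.7% and 27, and all genes 61.3% and 21. A match is a description of letters, and its part in any change was not tested.

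Lysosomal enzymes rose in a minority while the pump that acidifies the lysosome did not. Of 30 hydrolases 6 were called higher, and 17 lay above every saline library (beside 12.2% of all genes), with a median of 0.32 that was 0.47, 0.20 and 0.34 in CFA 1, 2 and 3. The 6 became 1 without saline 2 or saline 3 and 2 without CFA 3. Npc2, which carries cholesterol out of lysosomes, was at 74.8, 71.0 and 76.1 FPKM in saline and 255, 168 and 178 in CFA (log2 1.40 ± 0.17). Lgmn, an asparagine-specific protease, was at 45.8, 50.6 and 51.3 FPKM in saline and 119, 86.7 and 96.0 in CFA (log2 1.01 ± 0.13). Dnase2 (1.21), Fuca1 (1.07) and Man2b1 (1.00), which break down DNA and glycans, rose too, although leaving out 1 library ended the call of each in 3 or more of 6 fits. Of 21 lysosomal membrane proteins 3 were called: Laptm5 (1.75) of haematopoietic cells, the metal transporter Slc11a1 (1.91) and the peptide transporter Slc15a3 (1.22). None of 17 V-ATPase subunits was called by limma or limma-voom, and 11 had an unadjusted p below 0.05. Their median was -0.28, with -0.47, -0.23 and -0.19 in CFA 1, 2 and 3, 15 were negative and 9 were below every saline library (beside 16.8% of all genes), with Atp6v0d1 at 122, 155 and 139 FPKM in saline and 93.0, 110.3 and 109.7 in CFA.

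**Figure D3:**
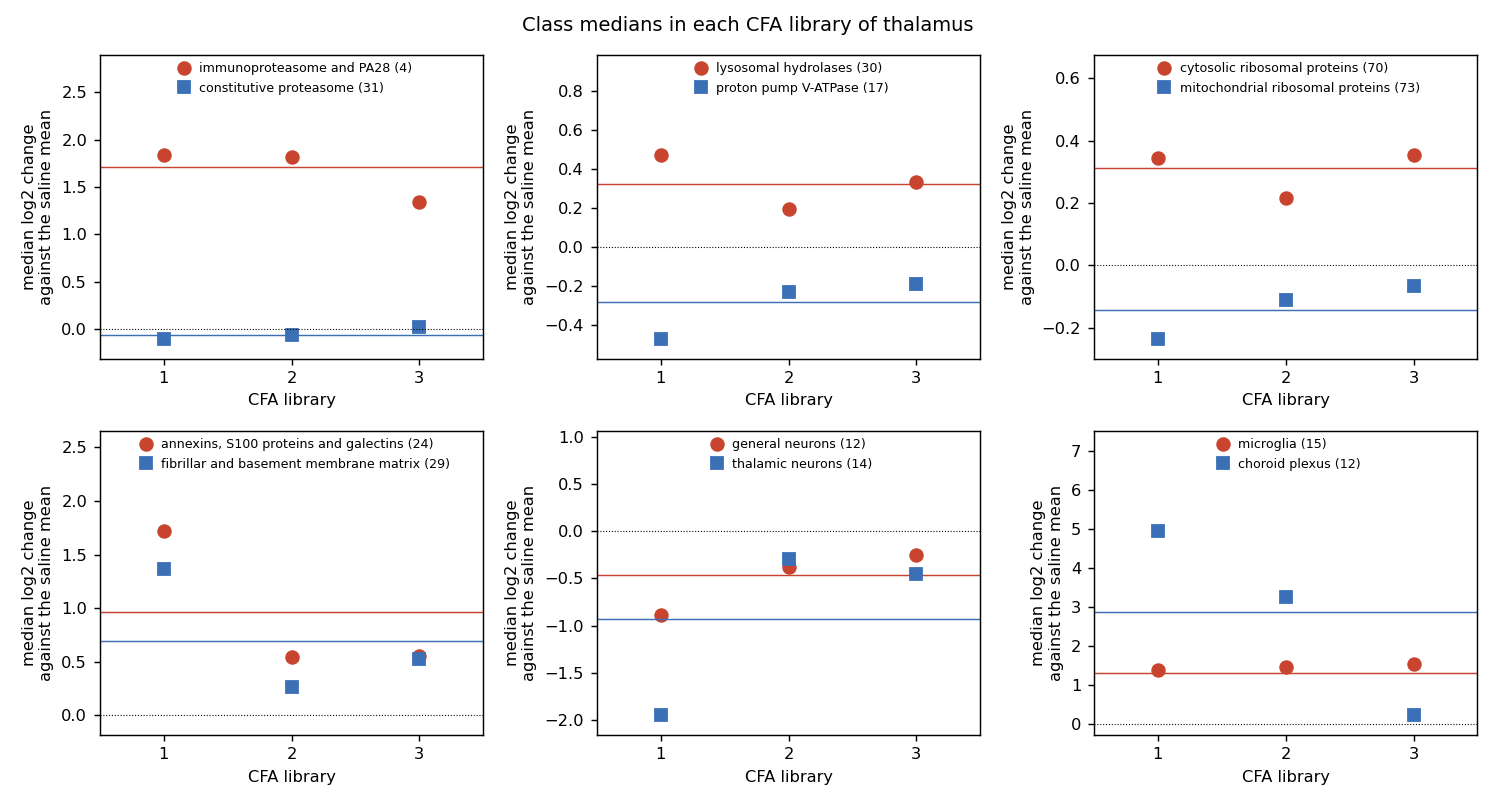
Median log2 change of paired classes in each CFA library against the saline mean (log2(FPKM + 1) scale; points), with a solid line at the median of the fit, a dotted line at 0 and the number of tested members in brackets. Immunoproteasome genes are high in all 3 libraries, while annexin and matrix medians are highest in CFA 1, the library with the most choroid plexus and meningeal RNA.

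Medians of calcium-binding and matrix genes were highest in CFA 1. Of 24 annexin, S100 and galectin genes 10 were called higher (41.7%, beside 3.84% of all genes). Their median was 0.97, with 1.72 in CFA 1 and 0.54 and 0.56 in CFA 2 and 3. Among the 22 with at least 1 FPKM in saline 8 were called, with a median of 0.84. Anxa3, an annexin of phagocytes, was at 12.3, 11.2 and 12.8 FPKM in saline and 62.7, 52.5 and 41.5 in CFA (log2 2.01 ± 0.16). Lgals3, a galectin of activated phagocytes, was at 3.56, 4.48 and 6.56 FPKM in saline and 63.0, 28.9 and 45.4 in CFA (log2 2.96 ± 0.31). S100a6 (2.85), S100a11 (2.44) and Lgals3bp (3.14) were also called. Of the 24, 10 were called without CFA 1, 6 without saline 2 and 5 without saline 3. Of 26 intermediate filament and motile cytoskeleton genes 8 were higher: Capg (2.07) caps actin filaments, Msn (1.41) ties actin to the membrane, and Cd44 (1.98) is a hyaluronan receptor of reactive cells. The 8 became 4 without CFA 1 or CFA 3, 5 without CFA 2, 3 without saline 2 or saline 3, 0 with CFA 3 as the only CFA library and 1 without saline 2 and CFA 2.

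Fibrillar and basement membrane matrix genes had a median of 0.70, which was 1.36, 0.27 and 0.52 in CFA 1, 2 and 3 and 0.36 without CFA 1. Fn1, fibronectin, was the single called member of 29, at 5.30, 4.57 and 4.52 FPKM in saline and 21.0, 12.2 and 19.6 in CFA (log2 1.65 ± 0.21, limma adjusted p = 0.0082). Its call held in the 6 fits without 1 library. Col3a1, a fibrillar collagen of meninges and vessel walls, was at 6.09, 1.84 and 2.93 FPKM in saline and 63.8, 8.25 and 28 in CFA (log2 2.59 ± 0.72), and no collagen of 25 was called by limma or limma-voom (7 with an unadjusted p below 0.05, limma adjusted p = 0.13 for Col8a1 and Col3a1). The meningeal marker sum of CFA 1 stands above, and its part in the matrix median was not tested.

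Protease inhibitors were among the larger rises of the matrix genes. Of 25 matrix proteases and inhibitors 6 were higher (24.0%, beside 3.84% of all genes), but 2 of the 18 with at least 1 FPKM in saline. Serping1, the inhibitor of complement C1, was at 6.25, 1.78 and 1.79 FPKM in saline and 81.0, 81.0 and 58.4 in CFA. A2m, a broad protease trap and acute-phase protein in rats, was at 0.341, 0.436 and 0.449 FPKM in saline and 6.72, 3.24 and 7.93 in CFA (log2 2.24 ± 0.29). Serpina3n, an acute-phase serpin of reactive astrocytes, was at most 0.00716 FPKM in saline and 3.80, 3.32 and 8.65 in CFA. For A2m and Serpina3n, CFA 3 was the highest library.

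Genes of inflammatory cell death were among the rises. Of 24 cell death genes 7 were higher (29.2%, beside 3.84% of all genes), and 6 of the 22 with at least 1 FPKM in saline. The number called was 6 to 8 in the fits without 1 library and 2 without saline 2 and CFA 2. Pycard, the adaptor of the inflammasome, was at 1.30, 1.28 and 2.02 FPKM in saline and 13, 8.25 and 10.9 in CFA (log2 2.20 ± 0.20). Casp1 (1.43) and Casp4 (1.61), the inflammatory caspases, Ripk3 (1.64), the kinase of necroptosis, and Bcl2a1 (2.62), an anti-apoptotic BCL2 relative of leukocytes, were called.

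Iron, lipid and heme genes moved by member. Of 22 iron and heme genes 6 were called (27.3%, beside 3.84% of all genes), with a median of 0.32. Among the 18 with at least 1 FPKM in saline 5 were called, with a median of 0.15. Hmox1, the heme-degrading enzyme, was at 4.85, 5.37 and 4.94 FPKM in saline and 25, 12.8 and 27.8 in CFA (log2 1.85 ± 0.28). Cp (3.49), the ferroxidase ceruloplasmin, Steap4 (2.55), a metalloreductase, and Slc11a1 rose as well. Ftl1, ferritin light chain, named here with its values known, had 342, 307 and 345 FPKM in saline and 990.2, 570.2 and 814 FPKM in CFA (log2 1.22 ± 0.21, limma adjusted p = 0.027), a call kept in 2 of 6 fits without 1 library. Among 20 eicosanoid genes, Tbxas1 (2.20, thromboxane synthase), Alox5ap (1.03, which presents arachidonate to 5-lipoxygenase), Pla2g4a (0.99, the phospholipase that frees it) and Ptges (2.12, prostaglandin E synthase) were higher. With at least 1 FPKM in saline, 2 of 16 were higher, with a median of 0.08 against 0.46 over all 20. Without 1 library 1 to 4 were called: 4 without saline 1, 1 without saline 2 or saline 3 and 2 without any single CFA library.

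Cholesterol synthesis lay below the median of all genes, with 24 of 28 negative and a median of -0.29. Msmo1, a sterol oxidase of that pathway, was the single member called, at 79.6, 86.5 and 89.3 FPKM in saline and 59.9, 60.7 and 65.2 in CFA (log2 -0.45 ± 0.09, limma adjusted p = 0.044), and the call was lost in all 6 fits without 1 library. Hmgcs1 (-0.48), an early enzyme of the pathway, was not called. The class median was -0.33, -0.33 and -0.08 in CFA 1, 2 and 3. None of 14 oligodendrocyte markers was called by limma or limma-voom (2 with an unadjusted p below 0.05), and their median was -0.22.

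Glycolytic genes held 2 rises within a class that leaned down. Hk2, the inducible hexokinase, was at 2.88, 2.33 and 2.05 FPKM in saline and 9.11, 7.76 and 7.31 in CFA (log2 1.41 ± 0.14). Pfkfb3, which makes the activator of phosphofructokinase, was at 10.1, 7.19 and 7.07 FPKM in saline and 17.8, 15 and 14.7 in CFA (log2 0.90 ± 0.16), a call kept in 1 of 6 fits without 1 library. The other 22 members did not pass, and 19 of the 24 were negative, with a median of -0.23. Of 22 genes of the citric acid cycle and pyruvate dehydrogenase 20 were negative (median -0.25), of 36 complex I subunits 35 (median -0.22) and of 16 ATP synthase subunits 15 (median -0.21), and none of these was called by limma or limma-voom (3, 6 and 2 with an unadjusted p below 0.05). In CFA 1, 2 and 3 the medians were -0.42, -0.17 and -0.10 for the citric acid cycle, -0.33, -0.22 and -0.10 for complex I and -0.32, -0.17 and -0.11 for ATP synthase. Without CFA 1 the 3 medians were -0.16, -0.17 and -0.16.

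Cytosolic and mitochondrial ribosomal genes had medians on either side of that of all genes, a contrast that was not tested. Of 70 cytosolic ribosomal protein genes 63 were positive, 45 lay above every saline library (beside 12.2%) and 4 were called higher (5.7%, beside 3.84% of all genes). The class median was 0.31, with 0.34, 0.22 and 0.35 in CFA 1, 2 and 3, and between 0.36 and 0.49 over 4 other scalings. Rps2, of the small subunit, was at 195, 188 and 175 FPKM in saline and 278, 277 and 262 in CFA (log2 0.55 ± 0.09). Rplp0, of the stalk of the large subunit, was at 288, 270.3 and 266 FPKM in saline and 524, 395 and 444 in CFA (log2 0.71 ± 0.13). Rps27l (0.95), a relative of Rps27, and Rpl10 (0.48) were the others, and at most 2 of the 4 were called without any 1 library. Of 73 mitochondrial ribosomal protein genes 63 were negative (beside 60.5% of all genes) and none was called by limma or limma-voom (7 with an unadjusted p below 0.05), with a median of -0.14 that was -0.10 to 0.03 over those scalings. Ribosomal genes have many processed copies, and reads shared with them leave their levels uncertain.

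Neuronal classes leaned down with almost no single gene past the threshold. All 31 neuronal cytoskeleton and transport genes were negative, 15 of them below every saline library (beside 16.8%), with a median of -0.37. None was called by limma or limma-voom, and 14 had an unadjusted p below 0.05. Presynaptic release genes had a median of -0.40 over 29 members, synaptic adhesion molecules -0.39 over 29, calcium and cyclic nucleotide signalling -0.36 over 39, postsynaptic scaffolds -0.29 over 30 and potassium channels -0.28 over 74. In CFA 1, 2 and 3 the medians were -0.60, -0.32 and -0.37 for presynaptic genes, -0.67, -0.27 and -0.29 for adhesion molecules and -0.57, -0.26 and -0.31 for calcium signalling. Called falls among them were Stx1a, Arpp21 and Kcnmb4. Shank1, a postsynaptic scaffold, was at 80.1, 78.7 and 74.1 FPKM in saline and 36.6, 60.7 and 48.3 in CFA (log2 -0.70 ± 0.18, limma adjusted p = 0.11). Cytoskeletal medians were -0.67, -0.32 and -0.24 in CFA 1, 2 and 3, but those of postsynaptic genes were -0.20, -0.24 and -0.58. The sum of 12 general neuron markers was 3236, 4592 and 4201 FPKM in saline and 2150, 3039 and 3258 in CFA, and the part of neuronal RNA content in these medians was not tested.

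Activity-regulated genes were uneven across libraries. Of 31 tested, Per1 was lower and none higher, with a median of -0.14 that was 0.16, -0.10 and -0.58 in CFA 1, 2 and 3. Dusp1, a phosphatase that ends MAP kinase signals, was at 46.5, 67.4 and 42.9 FPKM in saline and 15.3, 27.4 and 22.1 in CFA (log2 -1.25 ± 0.25, limma adjusted p = 0.052). Fosb was at 3.10, 3.75 and 1.63 FPKM in saline and 1.06, 1.32 and 0.563 in CFA (log2 -0.93, limma adjusted p = 0.15). Neither passed. Of the 31, 5 lay below every saline library, beside 16.8% of all genes. Cortical and hippocampal neuron markers had medians of 2.09, -0.09 and -0.87 in CFA 1, 2 and 3, the same order as the activity-regulated genes, and their part in this median was not tested.

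The falls that passed came from 28 coding and 12 other entries, beside 13289 coding genes of 14722 tested. Of these falls 35 were in no list, and most calls depended on the set of libraries. Of the 40, 2 were called in all 6 fits without 1 library and 21 in none, against 285 and 49 of the 565 rises. Arpp21, a cyclic AMP-regulated phosphoprotein and RNA-binding protein of neurons, was at 20.1, 18.2 and 16.6 FPKM in saline and 9.06, 10.9 and 9.42 in CFA (log2 -0.84 ± 0.11, limma adjusted p = 0.012), with its call kept in 5 of the 6. Fjx1, a secreted regulator of dendrite growth, was at 57.1, 61.3 and 60.1 FPKM in saline and 30.2, 39.1 and 33.3 in CFA (log2 -0.79 ± 0.11). Its call was kept in 3. Igsf1 (-0.91), a membrane glycoprotein, kept its call in 2, with 31.9, 39.3 and 31.6 FPKM in saline and 20.4, 17.8 and 15.2 in CFA.

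Other falls had small changes with narrow spreads. Tspoap1, which tethers calcium channels at release sites, was at 25.4, 26.5 and 24.3 FPKM in saline and 15.3, 17.4 and 17.4 in CFA (log2 -0.58 ± 0.09). Map3k10, a mixed-lineage kinase, was at 62.0, 61.9 and 58.0 FPKM in saline and 41.6, 43.4 and 44.0 in CFA (log2 -0.49 ± 0.08). Apc, the Wnt pathway scaffold, was at 32.6, 34.8 and 34.2 FPKM in saline and 23.3, 25.3 and 24.6 in CFA (log2 -0.46 ± 0.08). All 3 calls ended whichever single library was left out, and those of Map3k10 and Apc in 3 of 4 other scalings, whereas Tspoap1 was called in all 4. Zfp365 (-0.68), Fbxl16 (-0.66), Phactr3 (-0.62), Ttc9b (-0.62) and Adam11 (-0.46) likewise lost their calls in all 6. Kcnmb4 (-0.82), a BK channel subunit of neurons, kept its call in 1 and had its lowest saline value, 45 FPKM, in saline 1. Per1 (-0.88) kept it in 1, Kansl2 (-1.92) in 1 and Tnks2 (-1.64) in 2.

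**Figure D4:**
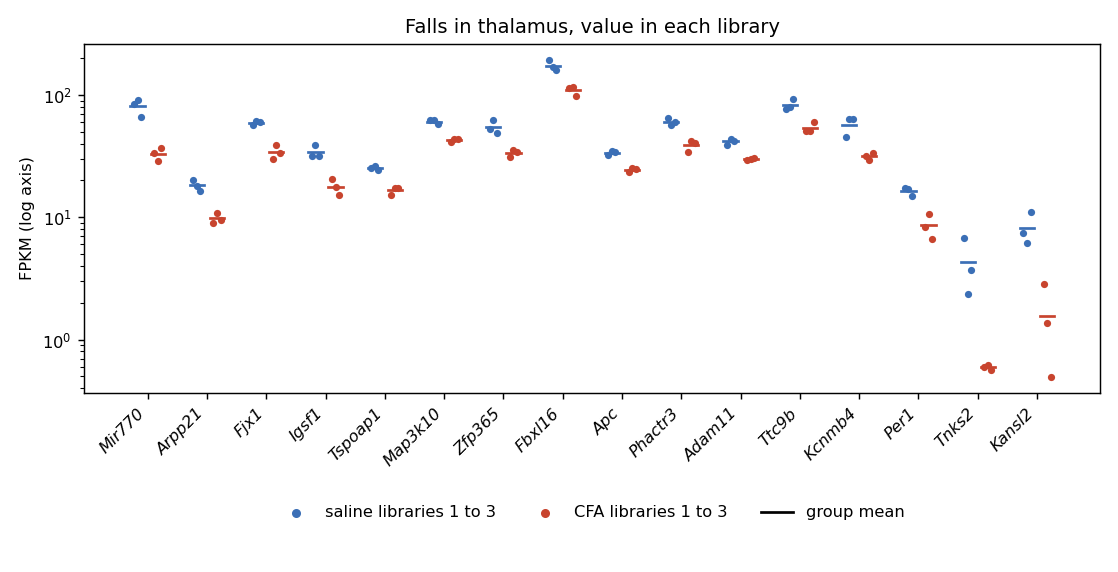
FPKM on a log axis for 16 falls, 1 point per library, with saline in blue, CFA in red and a short line at each group mean. Every CFA point lies below every saline point, by a small margin in Apc (23.3 to 25.3 against 32.6 to 34.8) and a wide one in Mir770.

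Noncoding entries contributed few calls. The largest biotypes tested were lincRNA (165 tested, 1 higher and 1 lower), pseudogenes (161, 3 higher and 1 lower), miRNA precursors (123, 1 higher and 2 lower), snoRNA (96, none by limma or limma-voom, 14 with an unadjusted p below 0.05), processed pseudogenes (92, 1 higher), processed transcripts (45, 2 higher and 1 lower), snRNA (27, 1 lower) and antisense RNA (13, none by either, 1 with an unadjusted p below 0.05). Another 662 entries had no biotype given, with 7 higher and 2 lower. With at least 1 FPKM in saline, 4 entries without a biotype, 0 lincRNA and 0 processed transcripts were higher. The other rises of these 3 groups met the filter through their CFA level. Protein-coding genes made up 13289 of the 14722 genes tested, 550 of the 565 rises and 28 of the 40 falls. The coding share was thus smaller among the falls than among the genes tested. Median changes were -0.23 for lincRNA, -0.16 for miRNA precursors and -0.04 for snoRNA. The counting was not stated to use strand, and reads of a precursor entry cannot be told apart from those of a longer transcript across it.

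Of the 2 falls called whichever library was left out, 1 was a microRNA entry. Mir770 lies at chromosome 6, 133682957 to 133683050, in the coordinates of the table. It was at 85.0, 91.5 and 66.2 FPKM in saline and 33.6, 28.8 and 37.1 in CFA (log2 -1.26 ± 0.16, limma adjusted p = 0.0080). Every CFA value was below every saline value, and the call held in all 6 fits without 1 library, with log2 changes of -1.39 to -1.16. Limma-voom on recovered reads, however, called 0 miRNA entries lower, so it did not call Mir770. The mature sequences that RefSeq gives on GRCr8 for this precursor (chr6:134298084-134298159) are printed because the entry carries the finding, with the seed, bases 2 to 8, in capitals.
rno-miR-770-5p: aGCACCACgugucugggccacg
rno-miR-770-3p: gUGGGCCUgacguggag
The entry is 94 bases long and mature levels were not measured.

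Mir770 sits in the imprinted Dlk1 to Dio3 domain, where a long maternal noncoding transcript carries many snoRNA and microRNA genes. Of the 104 entries listed along this stretch 16 were tested and 51 were listed at 0 in all 6 libraries. Of the 16, 15 were negative (beside 60.5% of all genes) with a median of -0.65. Among them 5 lay below every saline library (beside 16.8%) and 2 were called lower. The stretch was examined because Mir770 fell, and Mir770 is in each of these counts. Several of the other entries are short and rest on few reads, so the counts are a description. The second called entry was an unnamed lincRNA at chromosome 6, 133667975 to 133676907, described with its values known, at 142, 145 and 116 FPKM in saline and 82.0, 68.2 and 84.0 in CFA (log2 -0.78 ± 0.13, limma adjusted p = 0.028), and its call was kept in 1 of the 6 fits. Dlk1, the paternally expressed coding gene of the domain, also picked with its values known, had 12.2, 7.87 and 6.2 FPKM in saline and 2.85, 9.59 and 3.48 in CFA, and its groups overlapped. Other imprinted genes did not pass by limma or limma-voom (1 with an unadjusted p below 0.05): of 18 tested 15 were negative, with a median of -0.23 that was -0.61 in CFA 1 and -0.02 and -0.15 in CFA 2 and 3. Snhg11, a snoRNA host that the table lists as coding, was at 29.2, 35.8 and 29.7 FPKM in saline and 19.4, 16.4 and 24.0 in CFA (log2 -0.65 ± 0.16, limma adjusted p = 0.097).

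Other entries without a gene name, also described with their values known, went in both directions. A processed transcript at chromosome 12, 15700825 to 15844512, was at 0.339, 0.255 and 0.393 FPKM in saline and 5.78, 5.45 and 4.81 in CFA (log2 2.25 ± 0.14). A U1 snRNA copy at chromosome 3, 150991084 to 150991248, was lower, at 5.79, 7.18 and 5.49 FPKM in saline and 2.55, 2.50 and 2.55 in CFA (log2 -1.01 ± 0.13). Both calls held in all 6 fits without 1 library, and the groups did not overlap. The chromosome 12 entry met the filter through its CFA level. The U1 entry is 165 bases long and rests on few reads, and limma-voom called 0 snRNA entries lower. A miRNA entry at chromosome 1, 101448331 to 101448436, overlaps Ftl1 on the same strand, and its log2 change of 1.16 stood beside 1.22 for Ftl1, so their reads cannot be told apart. Itpripl2, listed as a processed pseudogene, rose by a log2 of 0.76, a call that ended whichever library was left out, and Tug1, a nuclear lincRNA, did not pass (-0.26, limma adjusted p = 0.29).

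Transcripts of the mitochondrial genome took a smaller share of the CFA libraries. Reads assigned to mitochondrial genes made up 9.88%, 9.78% and 9.48% of saline libraries 1, 2 and 3 and 6.95%, 7.37% and 8.28% of the CFA libraries, so the groups did not overlap. All 13 mitochondrial coding genes were negative, 12 of them below every saline library (beside 16.8% of all genes), with a median of -0.56. CYTB, cytochrome b of complex III, was the single one called, at 8333, 8673 and 8329 FPKM in saline and 5280.2, 5668 and 5789 in CFA (log2 -0.60 ± 0.12, limma adjusted p = 0.048), but in none of the 6 fits without 1 library and none of 4 other scalings. Both mitochondrial rRNAs were negative with a median of -0.85, and 3 of 13 tRNA entries were lower. The 3 tRNA calls held in 1, 0 and 0 of the 6 fits without 1 library, and limma-voom and the same FPKM total gave 0. CFA 3 was the CFA library nearest to saline for the share. Among the 36 nuclear complex I subunits, 13 lay below every saline library, beside 16.8% of all genes.

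**Figure D5:**
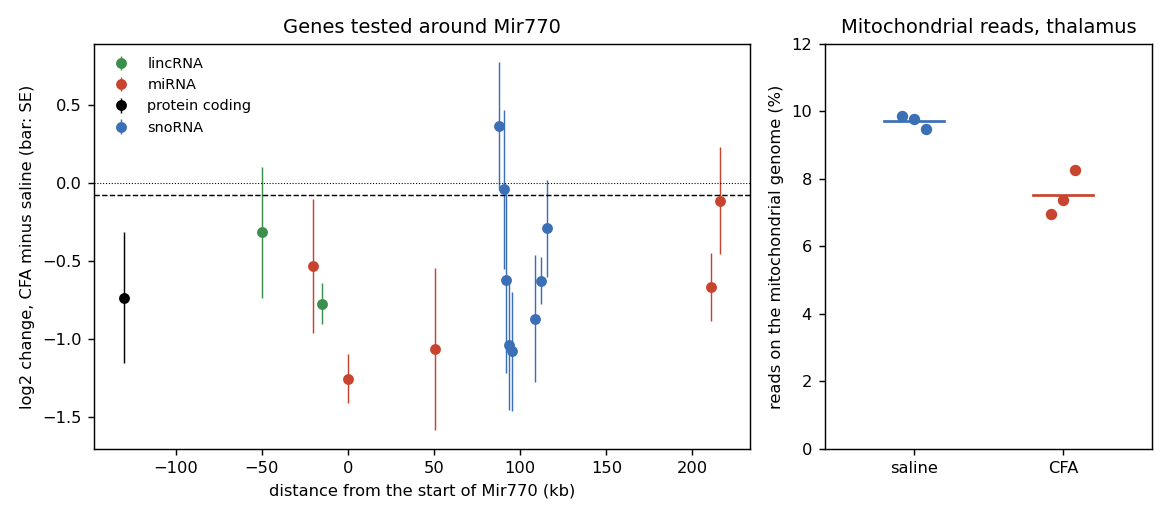
Left, log2 change with its standard error (log2(FPKM + 1) scale) of the 16 entries tested around Mir770 against distance in kilobases, coloured by biotype, with a dotted line at 0 and a dashed line at the median of all genes. Right, percent of reads on the mitochondrial genome in each library with a line at the group mean. On the left, 15 of the 16 entries, Mir770 included, lie below 0, and on the right the CFA libraries lie at 6.95% to 8.28%.

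The CFA effect on these genes was set beside that in the rostral ventral medulla, the brainstem region sampled in the same series, by the interaction of region and treatment. None of 13738 genes passed an adjusted p of 0.05 by limma, and 1560 (11.4%) had an unadjusted p below 0.05. The 496 genes called higher in thalamus and tested in both regions had a median change of 1.49 in thalamus and 0.78 in medulla. They were selected on the thalamus change, which enters the difference, so these values are a description. Among them, genes with the smallest p were Il1rn, the interleukin 1 receptor antagonist, with 3.54 in thalamus and 0.75 in medulla (difference 2.80 ± 0.41), Cd14, the endotoxin co-receptor, with 3.02 and 0.88, Gpnmb, a glycoprotein of lipid-laden phagocytes, with 4.33 and 1.01, and Slamf9 with 2.19 and 0.52. The limma adjusted p of the difference was 0.27 for each.

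Class medians in the medulla, set beside those above without a test of the difference, varied in how near they came. Fibrillar matrix genes had a median of -0.07 in medulla, annexins, S100 proteins and galectins 0.16, leukocyte signalling 0.92 and interferon-inducible GTPases 0.97. Neuronal cytoskeleton genes had a median of -0.07 there and V-ATPase subunits -0.03. Cytosolic ribosomal genes (0.22) and cholesterol synthesis genes (-0.30) had medians in medulla near those in thalamus, and oligodendrocyte markers were lower there (-0.44). Among falls, Tspoap1 was -0.58 in thalamus and -0.02 in medulla, Map3k10 -0.49 and -0.06, Lzts3 -0.48 and 0.01, and Git1 -0.49 and 0.10, with limma adjusted p-values for the difference of 0.27 to 0.30.

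Large gene families without an immune role in their name differed in how near they lay to the median of all genes (-0.08). Solute carriers (-0.07) were near it, and potassium channels (-0.28) and protocadherins (-0.25) were lower. Of 247 solute carriers 6 were higher (2.4%, beside 3.84% of all genes) and none lower. Among the 6 were Slc2a5 (0.96), the fructose transporter of microglia, Slc38a5 (1.04), which carries glutamine, and Slc7a7 (1.01), which carries cationic amino acids. The 6 became 2 without CFA 1, CFA 2 or saline 3 and 1 without saline 2. Of 50 Gpr receptors 6 were higher, among them Gpr84 (2.02), a fatty acid receptor of activated microglia, and Gpr183 (2.09), an oxysterol receptor. Only 1 of the 44 Gpr receptors with at least 1 FPKM in saline was higher, with a median of -0.22, so 5 of the 6 met the filter through their CFA level. Of 74 potassium channel genes Kcnn4 rose (1.96), the calcium-activated channel of microglia and lymphocytes, and Kcnmb4 fell. Kcnn4 was at 0.276, 0.200 and 0.0829 FPKM in saline and 4.29, 3.5 and 3.08 in CFA, and met the filter through its CFA level. Rab32 (2.22), Rab13 (1.14) and Rab27a (0.95) were higher among 52 Rab GTPases (5.8%, beside 3.84% of all genes). The number called was 1 without CFA 3, saline 2 or saline 3 and 2 without saline 1. Of 42 protocadherins, 46 ubiquitin-specific proteases, 30 SR and hnRNP splicing factors and 34 aminoacyl-tRNA synthetases none was called by limma, 5, 11, 2 and 3 had an unadjusted p below 0.05, and limma-voom called 0, 2, 1 and 0. Their medians were -0.25, -0.16, -0.03 and -0.14.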

How the data were processed

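The authors deposited a table of FPKM values with gene length, coordinates and biotype, per the file headers. Libraries came from a TruSeq kit on total RNA, per the labels' protocols. The aligner, counter, build and annotation were not given in the sources used here. Values were whole multiples of 1 read (tolerance 0.01), which gave the read totals. The authors' library total over recovered reads was 1.109 to 1.168 in CFA and 0.9609 to 1.042 in saline, a scaling of unstated origin.

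Log2(FPKM + 1) was fitted with limma 3.58.1 in R 4.3.3 (empirical Bayes with trend, 4 residual degrees of freedom, two-sided, Benjamini-Hochberg over 14722 genes, called below 0.05). The members, lists and named-gene rule were chosen with earlier results of these data known. Lists are described by counts and medians, not tested; 57 of 1189 list symbols were not matched in the table. Named genes were the 15 called rises under a log2 of 1.5 and the 15 falls with the smallest p, the 5 largest falls, up to 5 called members per list and direction (otherwise the 3 with the smallest p), up to 4 called entries per noncoding biotype, 7 noncoding RNAs by name, the 6 largest rises, and 4 genes per direction for the interaction; bare identifiers were passed over, and some genes the rule selects are not reported here.

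On data simulated from the thalamus saline means and library sizes, 14307 genes were tested, with 16 false calls. Of genes raised 2-fold 35 of 50 were called, and of those raised 4-fold all 50. Of 50 lowered to a ratio of 0.5, 29 were called. Of 50 lowered to a ratio of 0.25, 33 passed the filter and 31 were called. All genes had the same setting for spread, and libraries did not differ in tissue make-up, so the power in these data was not measured. Alternatives were another pseudocount (0.1), other filters, scalings, weights, a count-based voom fit, a replicate block, all 12 libraries in a model and left-out libraries. Recovered reads entered limma-voom, the library totals and the mitochondrial share only.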

Additional observations from a re-analysis of the deposited data

How the results depend on the processing

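Called genes numbered 605 (565 higher, 40 lower). A pseudocount of 0.1, no filter, median-of-ratios scaling and robust empirical Bayes kept all 3 counts within 1.5 times. A filter at 5 FPKM, which tests fewer genes, gave 298 (272 and 26). Quality weights gave 1010 (210 lower), all 12 libraries in a single model 1932 (1100 and 832). The same FPKM total gave 14 lower, quantile normalization 24 and limma-voom 7, so the number of falls depends on the scaling. Leaving out 1 library gave 309 to 544 called, 301 to 469 higher and 8 to 75 lower. The lowest counts, 320 (311 and 9) and 309 (301 and 8), came without saline 2 and saline 3, and falls numbered 75 without saline 1, 14 without CFA 1, 26 without CFA 2 and 16 without CFA 3. Without CFA 1 and 2 together, where the lone CFA library is assumed to vary like saline, 98 were called (97 and 1), without saline 2 and CFA 2 132 (130 and 2), and without saline 1 and CFA 1 738, of which 244 lower. With the replicate number as a block 1338 were called (755 and 583), of which 543 rises and 33 falls were among the main calls. The deviations of same-numbered libraries correlated at 0.358, 0.0565 and 0.267, so the numbers were not taken to pair the samples. For the difference between regions 0 genes were called, 11 with no filter, and 0 to 15 when 1 library was left out (15 without thalamus saline 1, 1 without thalamus CFA 2). Among named genes, none of them called, Psmd3 turned from -0.14 to 0.019 with the same FPKM total, 0.022 after quantile normalization and 0.032 by limma-voom, Psmc3 from -0.17 to 0.006 and 0.009 by the last 2, and Hbb, a red cell marker, from -0.30 to 0.104 without saline 3 and 0.300 without CFA 3, with -0.848 without CFA 1 as the lowest with 1 library left out. The cause of these shifts was not tested. Genes near 1 FPKM rest on few reads at this depth.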
